A study of Mus musculus with 4 samples.

Results

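Monocyte attracting chemokines and their receptors were followed through tumours of the mouse mammary carcinoma line Py8119, by single-cell RNA sequencing. The genes were chosen by name, as 9 of the 23635 genes listed in the count matrices: the ligand genes Ccl2, Ccl7, Ccl12, Ccl8, Ccl6 and Ccl9 and the receptor genes Ccr2, Ccr1 and Cx3cr1. All 9 were listed in each of the 4 libraries. For each gene the questions were which cells held its transcripts, how its level differed between control tumours and tumours with a short hairpin RNA (shRNA) against Sema4d, and how that difference stood beside the share of macrophages in the tumour.

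The tumours were transplants of Py8119, a mesenchymal-like line derived from a mammary tumour of a mouse that carries polyoma middle T antigen under the mouse mammary tumour virus promoter. There were 2 libraries labelled NC, whose genotype is given as control, and 2 labelled Sema4d-shRNA. The hairpin sequence, the number of hairpins, the host strain, its age, the site of transplantation and the time of harvest are not known from the labels. Nothing in them says whether the libraries of a group came from separate mice, so p-values measure the spread between these libraries, which may be technical. The label calls the cell type tumour cell, but the tissue was dissociated without a sort.

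The ligands here are small secreted proteins of the CC family that draw leukocytes along a gradient. Ccl2, Ccl7 and Ccl12 are known ligands of the receptor encoded by Ccr2, which lets Ly6C-high monocytes leave the bone marrow and enter inflamed tissue and tumours. Ccl6 and Ccl9 are rodent chemokines that act on the receptor encoded by Ccr1. Ccl8 of the mouse is known as a ligand of the receptor Ccr8. Cx3cr1 encodes the receptor of the membrane-bound chemokine Cx3cl1 and is carried by patrolling monocytes and by many tissue macrophages.

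The libraries held 83513906 to 119758159 UMIs (unique molecular identifiers, 1 per captured transcript), and the median cell held 5690 to 8180. Of 45220 deposited cells, 42359 were compared after filters on genes, mitochondrial UMIs and doublets. Clusters were named from marker genes, with the 9 genes and 27 other genes of the CC and CX3C chemokine system left out of the clustering. Cell classes are written with "-like" for that reason. All 12 macrophage markers reached at least 20 CPM (UMIs of a gene per 1000000 UMIs of the same cells in the same library) in macrophage or monocyte-like cells of every library, and 12 or 13 of the 15 tumour markers did so in tumour-like cells. Sema4d, the targeted gene, measured 6.66 and 7.31 CPM in NC tumour-like cells and 3.87 and 5.41 in those of the Sema4d-shRNA libraries. Sema4d-shRNA library 1 stood apart from the other libraries in the make-up of its tumour-like cells and in Ccl8, and values with and without it are given where a result rests on it. Pairs of libraries shared 751 to 3753 cell names, but these are running names and not barcodes.

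Macrophage or monocyte-like cells were a smaller share of both Sema4d-shRNA tumours. They made up 30.7% (exact 95% interval 29.8 to 31.6) and 38.5% (37.6 to 39.5) of cells in the NC libraries. In the Sema4d-shRNA libraries they made up 17.5% (16.8 to 18.3) and 17.9% (17.2 to 18.6). Intervals here and below cover counting error only. Both Sema4d-shRNA libraries lay below both NC libraries. The log2 change was -0.97, and edgeR's quasi-likelihood test on cell numbers gave an adjusted p of 0.184 after Benjamini-Hochberg adjustment over the 8 named classes (unadjusted p = 0.0231), which misses the threshold of 0.05. The same cells held 18.4% and 24.3% of all UMIs in the NC libraries and 8.61% and 9.51% in the Sema4d-shRNA libraries. Tumour-like cells held 73.5% and 71.2% against 88.0% and 84.5%.

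The 6 ligand genes lie in clusters on chromosome 11 and the 3 receptor genes on chromosome 9. In GENCODE M21 (GRCm38), Ccl2 is at chr11:82035571-82037453, Ccl7 at chr11:82045712-82047525, Ccl12 at chr11:82101845-82103400 and Ccl8 at chr11:82115185-82116799, all on the plus strand. Ccl9 at chr11:83572919-83578636 and Ccl6 at chr11:83587882-83593087 lie 1456.1 kb further on, on the minus strand. Cx3cr1 is at chr9:119901616-120069879 and Ccr1 at chr9:123962124-123968692, both on the minus strand, and Ccr2 is at chr9:124101950-124113557 on the plus strand, 133.3 kb from Ccr1. Where strand was not used in counting, reads of Ccl2, Ccl6 and Cx3cr1 cannot be told from those of genes on the other strand that overlap them, and no source used here says whether it was. The Cx3cr1 locus also spans Gorasp1, Csrnp1 and Xirp1, protein-coding genes on its own strand, from which its reads may not be told apart even where strand was used. Few stretches were shared with other genes: of all 50-base stretches of a gene's transcripts, 1.91% in Ccr2 and 1.97% in Ccl9 occurred in another gene.

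The neighbours Ccl12 and Ccl8 (11.8 kb apart) and Ccl9 and Ccl6 (9.2 kb apart) are 2 pairs of adjacent genes with the same main source but, in the first pair, with different behaviour across libraries, so the 250 bases before their start sites are shown. They come from RefSeq (GRCm38.p6), in which 7 of the 9 genes were matched. They run 5′ to 3′ on the strand of the gene, at chr11:82101595-82101844 (plus) for Ccl12, chr11:82114935-82115184 (plus) for Ccl8, chr11:83578637-83578886 (minus) for Ccl9 and chr11:83593088-83593337 (minus) for Ccl6. Capitals mark matches, on either strand, to TATAAA (the TATA box), to TGANTCA (an AP-1 motif) and to the 10-base NF-kB consensus.
Ccl12: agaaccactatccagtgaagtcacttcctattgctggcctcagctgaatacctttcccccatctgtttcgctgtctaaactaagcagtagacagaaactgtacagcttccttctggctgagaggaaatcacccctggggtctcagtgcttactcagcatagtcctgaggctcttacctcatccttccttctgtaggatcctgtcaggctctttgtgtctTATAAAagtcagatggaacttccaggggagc
Ccl8: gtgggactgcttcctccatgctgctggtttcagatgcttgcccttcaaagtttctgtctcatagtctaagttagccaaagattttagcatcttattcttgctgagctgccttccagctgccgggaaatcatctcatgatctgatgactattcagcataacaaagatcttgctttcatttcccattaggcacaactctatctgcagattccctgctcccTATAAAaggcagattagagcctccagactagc
Ccl9: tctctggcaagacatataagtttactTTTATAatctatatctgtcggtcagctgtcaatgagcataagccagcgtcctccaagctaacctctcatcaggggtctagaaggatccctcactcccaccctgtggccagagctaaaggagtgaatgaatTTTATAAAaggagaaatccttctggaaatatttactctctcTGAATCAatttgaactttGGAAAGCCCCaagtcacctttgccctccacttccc
Ccl6: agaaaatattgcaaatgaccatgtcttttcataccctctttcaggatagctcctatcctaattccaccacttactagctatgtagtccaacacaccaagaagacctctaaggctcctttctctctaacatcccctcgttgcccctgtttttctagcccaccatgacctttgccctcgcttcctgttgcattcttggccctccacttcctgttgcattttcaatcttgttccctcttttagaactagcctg

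TATAAA began 32 bases before the start of Ccl8 and 31 bases before that of Ccl12. In Ccl9 it matched at 224, 94 and 92 bases before the start, the last pair of matches overlapping on opposite strands. TGAATCA stood 53 bases and an NF-kB match 35 bases before the start of Ccl9. No match was found in the window of Ccl6, and the NF-kB motif also matched in that of Ccr1. Among 32851 promoter windows of that length, 12.37% held TATAAA, 6.75% TGANTCA and 7.25% the NF-kB consensus on either strand. GAGGAAGT (a PU.1 motif) was held by 2.44% of windows and an interferon regulatory factor consensus by 0.83%, and by none of the 7 windows of these genes. A match is a run of letters and not a site shown to be bound.

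Every one of the 9 genes had a higher level in macrophage or monocyte-like cells than in the tumour-like cells. With library as a block, edgeR's quasi-likelihood test called all 9 higher, where 80.5% of the 14007 genes tested were called, 39.9% higher and 40.6% lower, so passing this test is no distinction for a gene. The log2 difference was 1.76 for Ccl2 and 3.21 for Ccl7, and lay between 5.61 (Cx3cr1) and 7.17 (Ccr2) for the other 7, against a median of -0.02 over all genes tested. Ccl2 and Ccl7 thus stood nearest to equal levels in the 2 classes.

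**Figure D1:**
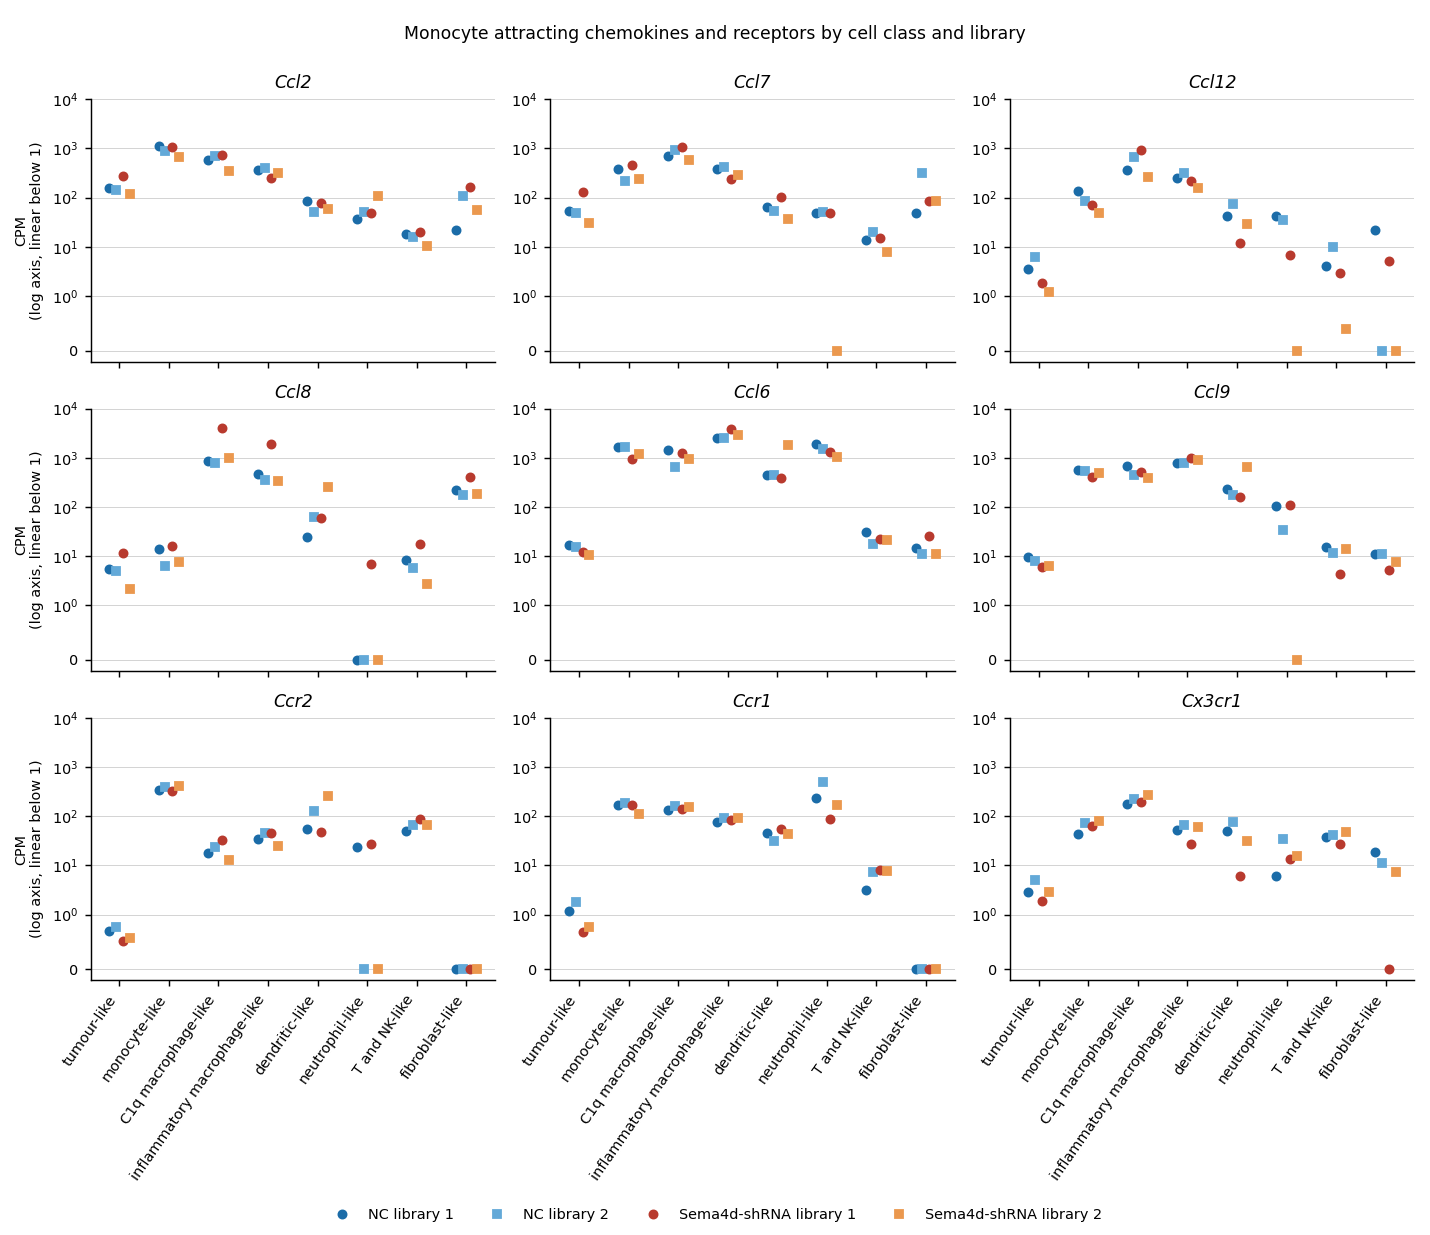
CPM (log axis, linear below 1) of each of the 9 genes in the named cell classes, 1 point per library, with NC and Sema4d-shRNA libraries in different colours. Ccl2 and Ccl7 are the ligands with tumour-like points above 30 in every library, while the other 7 genes lie below 17 there.

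Ccl2, the main CCR2 ligand of mouse and human, measured 531 and 581 CPM in the macrophage or monocyte-like cells of the NC libraries and 529 and 369 in those of the Sema4d-shRNA libraries. In tumour-like cells it measured 157 and 141 against 270 and 117. The tumour level was thus 29.7% and 24.3% of the macrophage level in the NC libraries, and 51.1% and 31.7% in the Sema4d-shRNA libraries. Since tumour-like cells were many and rich in RNA, they held 52.6% and 41.0% of all Ccl2 UMIs in the NC libraries and 83.2% and 72.5% in the Sema4d-shRNA libraries. Macrophage or monocyte-like cells held 44.4% and 57.6% against 15.9% and 25.7%. The main source of Ccl2 was therefore tumour-like in 3 libraries and macrophage or monocyte-like in NC library 2. The counting interval of such a share reached at most 2.85 percentage points to either side for any of the 9 genes.

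The Ccl2 of tumour-like cells lay above the level at which macrophage RNA was found in the same cells. The 12 macrophage markers measured in tumour-like cells a median of 1.34%, 1.53%, 0.63% and 0.71% of their macrophage level (NC 1, NC 2, Sema4d-shRNA 1, Sema4d-shRNA 2), and at most 2.93% in any library. The share of tumour-like cells with at least 1 Ccl2 UMI was 36.2% and 29.8% in the NC libraries and 45.0% and 28.3% in the Sema4d-shRNA libraries. In T and NK-like cells that share was 4.90%, 3.92%, 5.52% and 2.97% in the same order. Tumour-like cells are deeper, with a median of 8616 to 10669 UMIs, so each cell was also thinned to 1000 UMIs. The share with a Ccl2 UMI was then 9.90%, 7.85%, 14.7% and 7.32% in tumour-like cells and 2.10%, 1.25%, 1.86% and 1.05% in T and NK-like cells. Ccl2 was concentrated in few tumour-like cells: the 5% of cells with the most Ccl2 UMIs held 65.1%, 72.4%, 61.6% and 67.1% of them, against 38.5%, 35.5%, 43.7% and 42.7% among macrophage or monocyte-like cells.

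Ccl7, which acts on the receptors of both Ccr2 and Ccr1, measured 499 and 597 in macrophage or monocyte-like cells of the NC libraries and 508 and 330 in those of the Sema4d-shRNA libraries. Its tumour-like level was 54.2 and 48.2 against 129.5 and 30.8. Sema4d-shRNA library 1 was the highest in tumour-like cells and library 2 the lowest, so the NC values lay between them. Tumour-like cells held 29.2% and 18.8% of all Ccl7 UMIs in the NC libraries, and 71.2% and 44.4% in the Sema4d-shRNA libraries. Fibroblast-like cells, 20 to 121 per library, gave 47.6 and 318 against 83.9 and 86.5. Tumour markers summed to 1216 to 2322 CPM in them, close to the 1858 to 2068 of tumour-like cells. Such a sum does not tell tumour RNA from markers that fibroblast-like cells express themselves. The part of tumour RNA in their Ccl7 was not tested.

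Within the tumour-like cells, Ccl2 and Ccl7 were highest in the same pair of clusters. By the mean of the 4 libraries Ccl2 was highest in cluster 0, whose leading genes Ifit3, Rsad2 and Cxcl10 are interferon-induced, at 460 and 543 in the NC libraries and 661 and 384 in the Sema4d-shRNA libraries. Cluster 12, led by Hsd11b1, Postn, Enpp2 and Slpi, followed at 425 and 388 against 699 and 389, and the ranges of clusters 0 and 12 overlapped. On average the lowest was cluster 7, led by Ankrd1, a target gene of YAP, at 40.2 and 31.5 against 40.8 and 42.5, although cluster 8 was lower in Sema4d-shRNA library 2 (33.6). For Ccl7 cluster 12 was highest, at 219 and 137 against 373 and 156, and cluster 0 second, at 122 and 141 against 290 and 81.8. Clusters 0 and 12 together held 54.8% and 53.9% of the tumour-like Ccl2 UMIs in the NC libraries and 69.4% and 55.5% in the Sema4d-shRNA libraries.

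**Figure D2:**
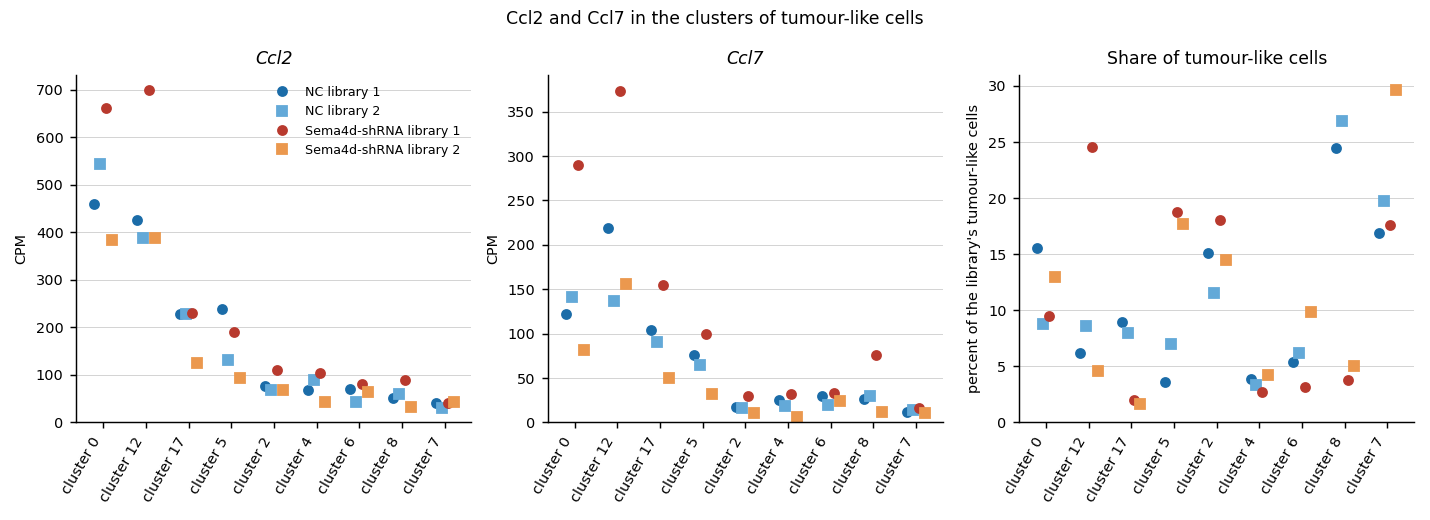
CPM (linear axis from 0) of Ccl2 and Ccl7 in the 9 clusters of tumour-like cells, 1 point per library, beside the percent of tumour-like cells in each cluster. Clusters 0 and 12 lie highest for both genes, and cluster 12 holds 24.6% of the tumour-like cells of Sema4d-shRNA library 1 against at most 8.61% in the other libraries.

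Cluster 12 made up 6.15% and 8.61% of tumour-like cells in the NC libraries but 24.6% and 4.58% in the Sema4d-shRNA libraries, so the library with the most Ccl2 and Ccl7 in its tumour-like cells also held the most cluster 12 cells. Within single clusters that library was also the highest, for Ccl7 in 9 of the 9 tumour clusters and for Ccl2 in 7 of the 9. The log2 difference between the groups in tumour-like cells was 0.42 for Ccl2 and 0.69 for Ccl7 with all cells, 0.13 and 0.26 without cluster 12, and 0.15 and 0.10 without clusters 0 and 12. None of these passed edgeR's test at an adjusted p of 0.05. Both exclusions were chosen after seeing the data, and clusters 0 and 12 are those highest in Ccl2 and Ccl7 in these same cells. The part of the cluster make-up in the differences was not tested.

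Ccl12, a mouse chemokine that acts on CCR2, measured 345 and 471 in macrophage or monocyte-like cells of the NC libraries and 398 and 192 in those of the Sema4d-shRNA libraries. Tumour-like cells gave 3.54 and 6.28 against 1.87 and 1.22. These lie at the share of the macrophage level that the macrophage markers showed in the same cells, so no tumour source of Ccl12 was detectable. Ccl8 measured 403 and 382 in macrophage or monocyte-like cells of the NC libraries and 2168 and 370 in those of the Sema4d-shRNA libraries. The other 3 libraries lay close together, and Sema4d-shRNA library 1 was 5.38 times the next highest. Fibroblast-like cells carried Ccl8 too, at 216 and 175 against 414 and 184.

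Ccl6, expressed by cells of the myeloid lineage, measured 1189 and 913 in macrophage or monocyte-like cells of the NC libraries and 2094 and 1418 in those of the Sema4d-shRNA libraries. Both Sema4d-shRNA libraries lay above both NC libraries. Neutrophil-like cells had 1877 and 1510 against 1311 and 1044, within the range of the macrophage values. This was above the macrophage level of the same library in both NC libraries and below it in both Sema4d-shRNA libraries. Ccl9 measured 512 and 425 in macrophage or monocyte-like cells against 633 and 530, again with both Sema4d-shRNA libraries higher. Dendritic-like cells held less of both, except in Sema4d-shRNA library 2, where Ccl6 reached 1838 and Ccl9 638 against at most 450 and 229 in the other 3 libraries. Neutrophil-like and dendritic-like cells were few, 15 to 58 and 55 to 157 per library. Their summed macrophage markers came to 2104 to 6093 and 6791 to 7843 CPM, against 24336 to 28223 in macrophage or monocyte-like cells, and the part of this in their Ccl6 and Ccl9 was not tested.

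Ccr2, the receptor that marks recruited monocytes, measured 73.8 and 80.1 in macrophage or monocyte-like cells of the NC libraries and 78.3 and 94.2 in those of the Sema4d-shRNA libraries. T and NK-like cells were a further carrier, at 49.5 and 67.5 against 86.3 and 67.9, and the ranges of these classes overlapped. Dendritic-like cells ranged from 47.9 to 259. Tumour-like cells stayed at 0.52 to 0.77. Of all Ccr2 UMIs, macrophage or monocyte-like cells held 88.8% and 89.7% in the NC libraries and 78.5% and 70.2% in the Sema4d-shRNA libraries. Among T and NK-like cells, NK-like sub-cluster 9 (led by Klra8, Gzma and Ncr1) had 84.2 and 170 against 265 and 213. Its NC values rest on 7 and 13 UMIs in 33 cells each. The other NK-like cells, sub-cluster 1, had 0 and 0 against 85.1 and 57.2, and all NK-like cells together ranged from 50.3 to 190.

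Ccr1, the receptor of Ccl6 and Ccl9, measured 126 and 141 in macrophage or monocyte-like cells of the NC libraries and 110 and 111 in those of the Sema4d-shRNA libraries. Neutrophil-like cells spread from 89.7 to 503 and overlapped them. Cx3cr1 measured 136 and 177 against 96.7 and 132 in macrophage or monocyte-like cells, 38.2 and 41.7 against 27.6 and 47.1 in T and NK-like cells, and 2.93 and 5.15 against 1.87 and 2.83 in tumour-like cells. Relative to the macrophage level, Ccr1 in tumour-like cells lay within or below the range of the macrophage markers in every library. Cx3cr1 lay within it in the NC libraries, and above it in both Sema4d-shRNA libraries, at 1.94% and 2.14% against marker maxima of 1.76% and 1.52%. The part of the genes that overlap Cx3cr1 in these values was not tested.

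The macrophage or monocyte-like class was split further, and its named sub-classes differed in what they carried. Monocyte-like cells (sub-cluster 8, led by Ly6c2 and Plac8, and sub-cluster 0, led by Ace, Plac8 and Hp) numbered 275 to 459 per library. Ace and Adgre4, which is also among the leading genes of sub-cluster 0, are known from non-classical monocytes. Macrophage-like cells were the C1q macrophage-like cells (sub-cluster 9, led by Cbr2, Fcrls and Folr2) and inflammatory macrophage-like cells (sub-clusters 2 and 7, with Mmp12) together. The rest of the class stayed unnamed, 61.3% and 67.1% of it in the NC libraries and 42.0% and 60.7% in the Sema4d-shRNA libraries. These unnamed cells, sub-clusters 11, 13 and 14 among them, are on neither side of the comparison below. With library as a block, edgeR's test called 7 of the 9 genes different between the monocyte-like and macrophage-like cells, 3 higher in the former and 4 lower, where 21.2% of 9068 genes were called higher and 18.7% lower. The median log2 difference was -0.74 for the 9 genes and -0.02 over all genes tested.

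In monocyte-like cells Ccr2 measured 334 and 391.5 in the NC libraries and 331 and 407 in the Sema4d-shRNA libraries. Macrophage-like cells had 26.3 and 32.7 against 42.7 and 22.6. All 4 monocyte-like values lay above all 4 macrophage-like values, with a log2 difference of 3.50, the widest of the 3 in that direction. Ccl2 was higher in monocyte-like cells too, by 1.05 on the log2 scale (the same test), and reached 1478 and 1091 against 1425 and 977 in sub-cluster 8. Ccr1 was higher by 0.45 (edgeR adjusted p = 0.00556), a call lost without NC library 1 (adjusted p = 0.0735).

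Ccl8 was low in monocyte-like cells, at 14.2 and 6.31 in the NC libraries and 15.9 and 7.48 in the Sema4d-shRNA libraries, and its log2 difference from macrophage-like cells was -6.49. Log2 differences below 0 were also called for Ccl12 (-2.07), Cx3cr1 (-0.83) and Ccl9 (-0.65). Ccl6 (-0.80, adjusted p = 0.273) and Ccl7 (-0.74, adjusted p = 0.157) did not pass edgeR's test, although Ccl7 passed without NC library 2 (adjusted p = 0.00797).

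**Figure D3:**
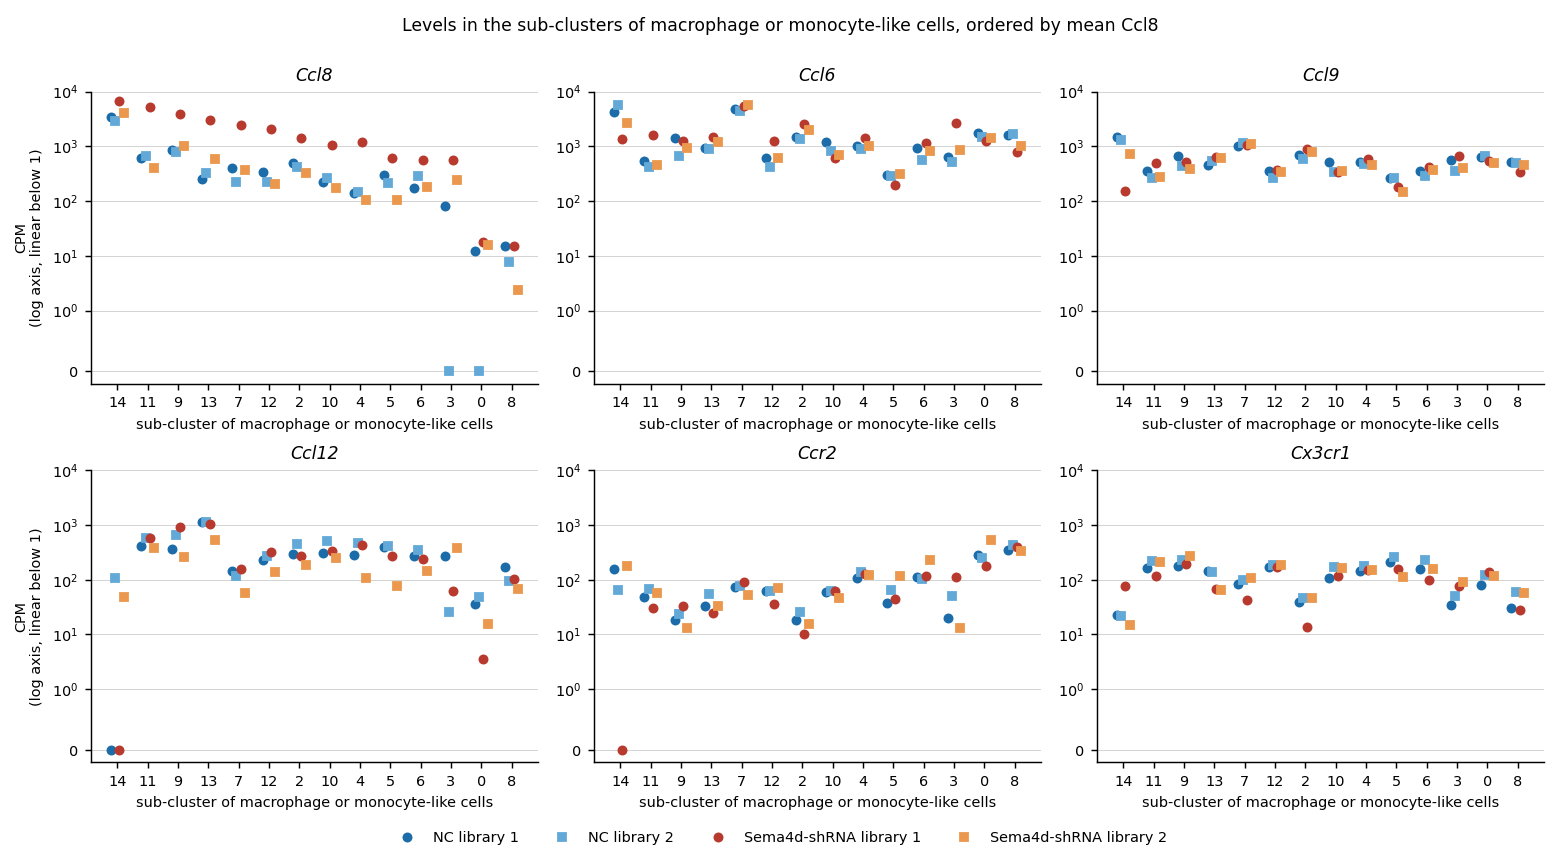
CPM (log axis, linear below 1) in the sub-clusters of macrophage or monocyte-like cells, ordered by mean Ccl8, 1 point per library. Ccl8 lies between 2879 and 6782 in sub-cluster 14 and is low in sub-clusters 0 and 8, where mean Ccr2 is highest.

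Ranked by the mean of the 4 libraries, the ligands peaked in different macrophage sub-clusters. Ccl8 was highest in sub-cluster 14, a set of 6 to 54 cells per library led by Retnla, Lyve1 and Cd209f, genes of perivascular resident macrophages, at 3444 and 2879 in the NC libraries and 6782 and 4158 in the Sema4d-shRNA libraries. Sub-cluster 11, led by Cxcl9 and Gbp2b, and the C1q macrophage-like cells came next. Ccl6 was highest in sub-cluster 7, led by Chil3, Mmp12 and Spp1, at 4880 and 4529 against 5383 and 5800.5, and Ccl9 in the same sub-cluster, at 1008 and 1132 against 1078 and 1120.2. In the few cells of sub-cluster 14, Ccl6 of NC library 2 (5629) and Ccl9 of both NC libraries (1508 and 1321) lay above those values. Ccl12 and Ccl7 were highest in sub-cluster 13, led by the interferon-induced genes Rsad2 and Ifit2. Ccl12 measured 1114 and 1155 against 1040 and 542 there, and Ccl7 1124 and 1249 against 1170 and 682. Cx3cr1 was highest on average in the C1q macrophage-like cells, at 176 and 225 against 192 and 271, and its range overlapped that of sub-cluster 5, at 209 and 258 against 154 and 113. Sub-clusters were found with the other genes of these same cells, so these levels are a description and were not tested.

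**Figure D4:**
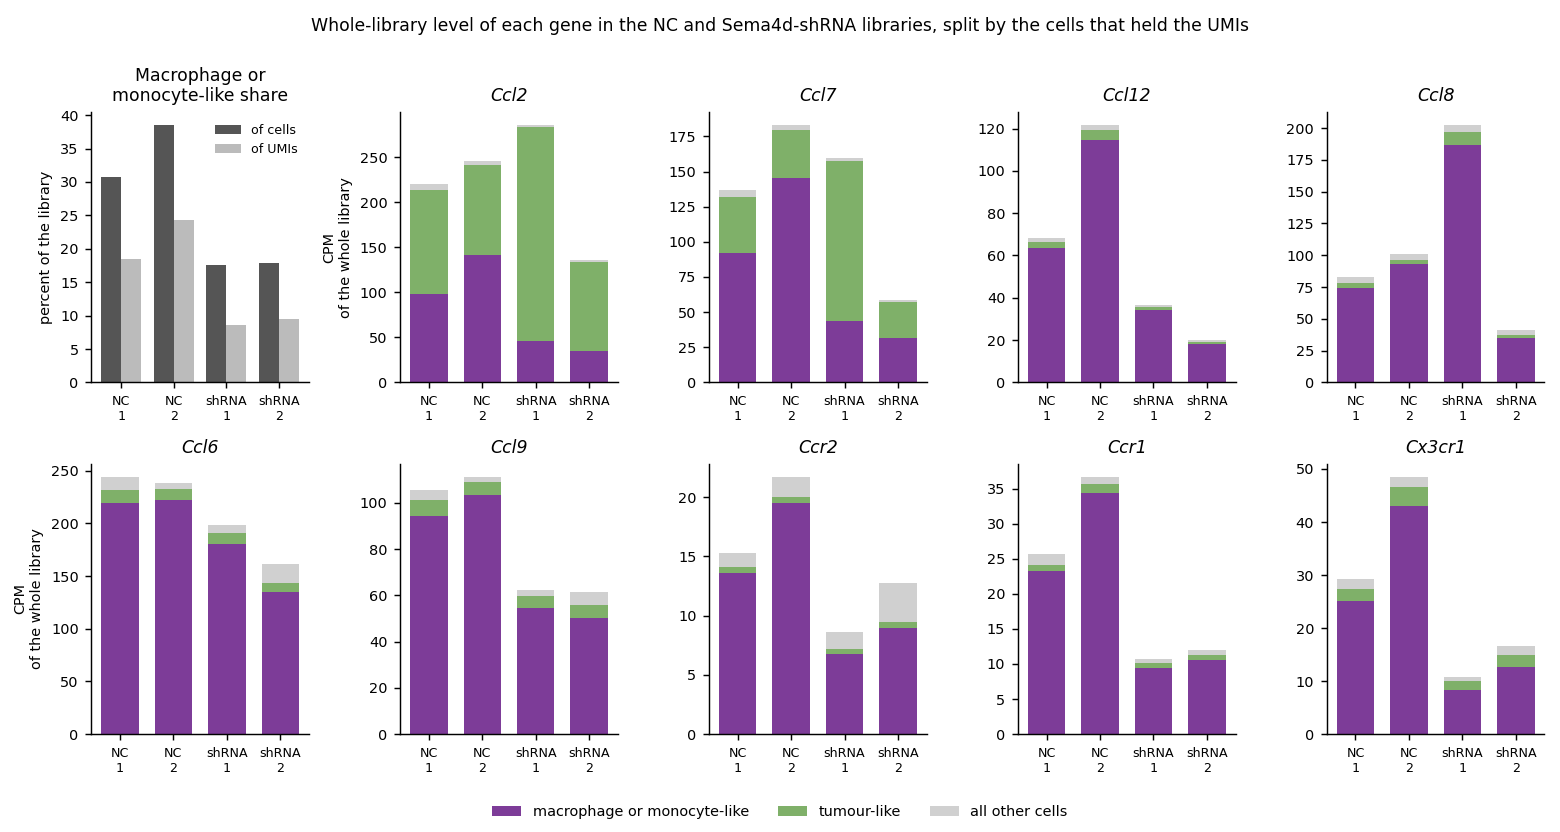
Whole-library CPM of each gene (linear axis from 0), 1 bar per library, split into the UMIs of macrophage or monocyte-like, tumour-like and other cells. The macrophage part of every gene except Ccl8 is smaller in both Sema4d-shRNA libraries than in both NC libraries, while the tumour part of Ccl2 and Ccl7 is largest in Sema4d-shRNA library 1. Macrophage or monocyte-like cells held 18.4% and 24.3% of all UMIs in the NC libraries and 8.61% and 9.51% in the Sema4d-shRNA libraries. How many of all genes have a smaller macrophage part was not counted.

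In whole libraries, 8 of the 9 genes had a log2 change below 0 in the Sema4d-shRNA tumours, and 2 of the 9, Ccl9 and Ccr1, passed edgeR's quasi-likelihood test, both lower. Of all 16442 genes tested 1.84% were called, 0.17% higher and 1.67% lower. The median log2 change was -0.74 for the 9 genes and 0.01 over all genes tested. In sums over whole libraries, fewer cells of a type and less RNA per cell cannot be told apart, and the macrophage share was lower in the same libraries. At an unadjusted p under 0.05 there were 6 of the 9 (Ccl12, Ccl6, Ccl9, Ccr1, Ccr2 and Cx3cr1), where 23.1% of all genes tested were. DESeq2 called those same 6, where it called 8.73% of all genes. Whether the groups overlapped is given below for single genes, and the share of all genes without overlap was not counted.

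Ccl9 measured 106 and 111 CPM of the library in the NC tumours and 62.5 and 61.4 in the Sema4d-shRNA tumours. The groups did not overlap, and the log2 change was -0.75 (SE 0.08, adjusted p = 0.0215 by edgeR). Ccr1 measured 25.7 and 36.7 against 10.7 and 12.01, also without overlap, with a log2 change of -1.40 (SE 0.19, edgeR adjusted p = 0.0488). Both calls were lost when macrophage or monocyte-like cells were left out of the sums, at -0.16 (adjusted p = 0.819) for Ccl9 and -0.96 (adjusted p = 0.153) for Ccr1. Those cells held 82.1% to 93.0% of all Ccl9 UMIs and 87.8% to 93.7% of all Ccr1 UMIs, so little of either gene remained. This setting was chosen after seeing the data, and in it the calls over all genes fell from 303 to 25. Leaving out NC library 2 also ended the call of Ccl9 (adjusted p = 0.145), and that of Ccr1 ended without NC library 2 (0.124), Sema4d-shRNA library 1 (0.145) or Sema4d-shRNA library 2 (0.0928).

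Of the CCR2 ligands, Ccl12 measured 68.2 and 122 in the NC tumours and 36.7 and 19.97 in the Sema4d-shRNA tumours (log2 change -1.69, SE 0.48, edgeR adjusted p = 0.172). The groups did not overlap. Ccl2 measured 220 and 245 against 286 and 136 (log2 change -0.08, SE 0.39) and Ccl7 137 and 183 against 160 and 58.7 (-0.49, SE 0.59). Their groups overlapped, with Sema4d-shRNA library 1 near or above the NC libraries and library 2 below them, and without library 1 Ccl2 passed at -0.71 (edgeR adjusted p = 0.0136).

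The 2 main parts of the Ccl2 sum differed in their pattern. Macrophage or monocyte-like cells gave 97.7 and 141 CPM of the library in the NC tumours and 45.5 and 35.1 in the Sema4d-shRNA tumours, without overlap. Tumour-like cells gave 116 and 101 against 238 and 98.8. The macrophage part was lower in both Sema4d-shRNA libraries, while the tumour part was high in library 1 and level with NC in library 2.

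Ccl8 measured 82.7 and 101 in the NC tumours and 202 and 40.9 in the Sema4d-shRNA tumours, so the Sema4d-shRNA libraries were the highest and the lowest of the 4 and the groups overlapped (log2 change 0.46, SE 0.95). Without Sema4d-shRNA library 1 the log2 change was -1.10 (edgeR adjusted p = 0.0106), and without library 2 it was 1.21 (adjusted p = 0.00273), so leaving out either gave a call, in opposite directions. Ccl6 measured 244 and 238 against 198 and 161, without overlap (-0.37, SE 0.11, edgeR adjusted p = 0.124), and passed without Sema4d-shRNA library 1 (adjusted p = 0.0320). Of the other receptors, Ccr2 measured 15.3 and 21.7 against 8.59 and 12.8 (-0.74) and Cx3cr1 29.3 and 48.5 against 10.8 and 16.7 (-1.44). Neither overlapped between groups, and neither passed edgeR's test (adjusted p = 0.196 and 0.120).

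**Figure D5:**
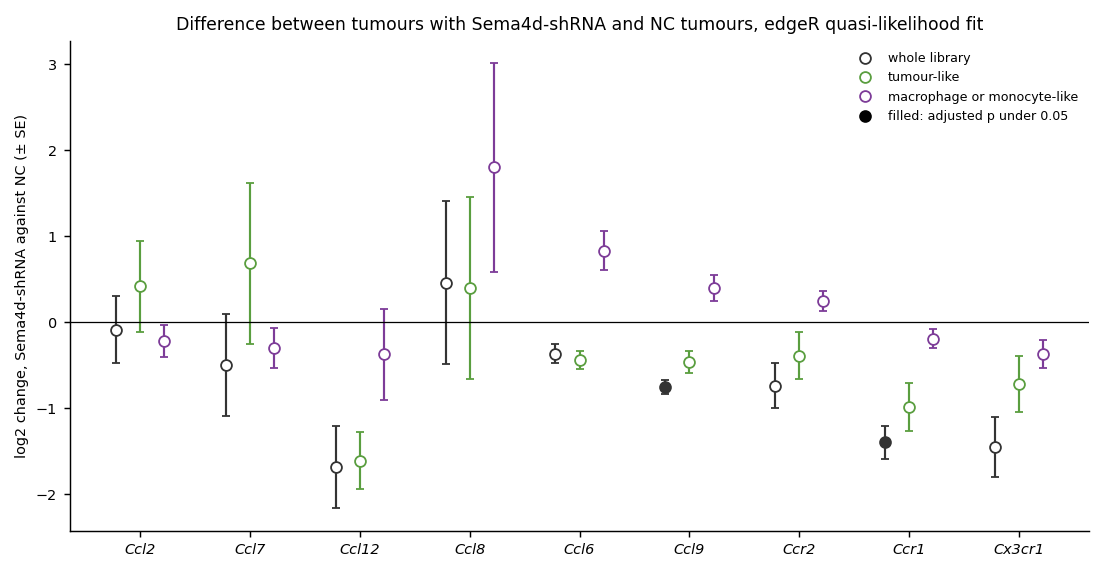
Log2 change of each gene, Sema4d-shRNA against NC, with its standard error, in whole libraries, tumour-like cells and macrophage or monocyte-like cells. The whole-library changes of Ccl9 and Ccr1 passed the test, at -0.75 and -1.40, while no change within macrophage or monocyte-like cells did.

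Within macrophage or monocyte-like cells none of the 9 genes passed edgeR's test, where 0.25% of 12410 genes were called, 0.0564% higher and 0.193% lower. DESeq2 called none either, where it called 0.524% of all genes, and 4 (Ccl6, Ccl9, Ccr2 and Cx3cr1) had an unadjusted p under 0.05, where 10.2% of all genes had. The log2 changes ran from -0.37 to 1.80, with a median of -0.19 for the 9 genes and 0.01 over all genes. The log2 changes of the receptors were -0.19 for Ccr1 (SE 0.11, edgeR adjusted p = 0.607), 0.25 for Ccr2 (adjusted p = 0.481) and -0.37 for Cx3cr1 (adjusted p = 0.487). The lower whole-library levels of Ccr1 and Ccl9 had no called counterpart within the class that held most of their UMIs. The log2 change of Ccl9 there was 0.40 (edgeR adjusted p = 0.365). Ccr1 still measured less there in both Sema4d-shRNA libraries (110 and 111) than in both NC libraries (126 and 141). Both Sema4d-shRNA libraries lay below both NC libraries for Ccr1 in 7 of the 14 sub-clusters, and above them in 0. The share of all genes with such an order was not counted.

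Ccl6 had the higher level in both Sema4d-shRNA libraries within that class (log2 change 0.83, SE 0.23, edgeR adjusted p = 0.239). It passed without Sema4d-shRNA library 2 (1.12, adjusted p = 0.00178) and not without any of the other 3 libraries, with a log2 change of 0.48 without Sema4d-shRNA library 1 (adjusted p = 0.396) and a highest adjusted p of 0.962 without NC library 2. The class itself was made up differently: the inflammatory macrophage-like cells, which carry the most Ccl6, were 12.4% and 11.2% of it in the NC libraries and 26.3% and 23.0% in the Sema4d-shRNA libraries. Within those cells alone Ccl6 measured 2496 and 2575 against 3800 and 2938, and within monocyte-like cells 1634 and 1646 against 932 and 1177. The part of the make-up in the level of the whole class was not tested.

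Ccl8 within the class had the log2 change 1.80 (SE 1.22, edgeR adjusted p = 0.759), which was -0.04 without Sema4d-shRNA library 1 and 2.59 without library 2 (adjusted p = 3.65e-09). That library was the highest in 13 of the 14 sub-clusters, among them sub-cluster 11, at 5265 against 609 and 677 in the NC libraries and 410 in Sema4d-shRNA library 2. In C1q macrophage-like cells it had 3955 against 844 and 784 in the NC libraries and 1006 in Sema4d-shRNA library 2. Of its C1q macrophage-like cells 87.1% held a Ccl8 UMI, and 67.6% after thinning to 1000 UMIs per cell, against 29.8% to 31.3% after thinning in the other libraries. Sema4d-shRNA library 2 lay above both NC libraries as well in C1q macrophage-like cells, and both Sema4d-shRNA libraries lay above both NC libraries in 5 of the 14 sub-clusters. Over the whole class library 2 was the lowest of the 4. Ccl2, Ccl7 and Ccl12 were lowest in Sema4d-shRNA library 2, with log2 changes of -0.22, -0.30 and -0.37. These turned to 0.06, 0.02 and 0.09 without that library, and were -0.54, -0.69 and -1.04 without Sema4d-shRNA library 1.

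In tumour-like cells none of the 9 passed edgeR's test either, where 0.537% of 14518 genes were called, 0.0964% higher and 0.441% lower. At an unadjusted p under 0.05 there were 4 (Ccl12, Ccl6, Ccl9 and Ccr1, at most 17 CPM there), where 12.6% of all genes were. Of these DESeq2 called Ccl12, where it called 1.87% of all genes. For Ccl2 (log2 change 0.42, SE 0.53) and Ccl7 (0.69, SE 0.94), which lay above that level, the direction rested on Sema4d-shRNA library 1. Without it the changes were -0.28 and -0.66, and Ccl7 passed edgeR's test (adjusted p = 0.00267). Without Sema4d-shRNA library 2 they were 0.89 and 1.37, and both passed (adjusted p = 9.57e-05 and 1.68e-06). Within the 3 sub-classes edgeR's test also called none of the 9. In monocyte-like cells 0.212% of genes were called, all lower, and in inflammatory macrophage-like cells 0.0962%, all lower. In C1q macrophage-like cells 0.196% were called, 0.0346% higher and 0.161% lower. In T and NK-like cells none of the 6 that could be tested was called, where 0.521% were, 0.298% higher and 0.223% lower. At an unadjusted p under 0.05 there were 2 in monocyte-like cells (Ccl12 and Ccl6), 4 in inflammatory macrophage-like cells (Ccl12, Ccl2, Ccl6 and Ccl7), 0 in C1q macrophage-like cells and 1 in T and NK-like cells (Ccr2). Of all genes tested 5.37%, 4.26%, 6.14% and 7.87% were, in the same order. DESeq2 called Ccl6 in the monocyte-like cells, where it called 0.212% of all genes, and none in the other 3.

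The change between groups in the macrophage or monocyte-like cells was also set against that in the tumour-like cells, as the difference of their log2 changes. edgeR's test of this difference called 5 of the 9 genes higher in the former (Ccl8, Ccl6, Ccl12, Ccl9 and Ccr1), where 2.92% of 15039 genes were called, 2.18% higher and 0.738% lower. Relative to the macrophage level, these genes lay within the range of the macrophage markers in the tumour-like cells of every library, or below it (Ccr1 in NC library 1), and the summed macrophage markers in tumour-like cells were 314 and 405 CPM in the NC libraries and 148 and 157 in the Sema4d-shRNA libraries. The part of this in the differences was not tested. Ccl8 and Ccl6 passed whichever 1 library was left out. Ccl12, Ccl9 and Ccr1 missed the threshold without NC library 2 (edgeR adjusted p = 0.0739, 0.0992 and 0.738), Ccl9 and Ccr1 also without NC library 1 (0.0854 and 0.0577), and Ccr1 without Sema4d-shRNA library 1 (0.0915). For Ccl2 (-0.54, adjusted p = 0.267) and Ccl7 (-0.69, adjusted p = 0.794), the ligands with a tumour-like source, the difference did not pass. It passed without Sema4d-shRNA library 2, at -0.83 (edgeR adjusted p = 2.21e-08) and -1.34 (adjusted p = 4.36e-21), and was -0.26 and -0.015 without library 1.

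Of the 27 other genes of the CC and CX3C chemokine system, 20 could be tested in whole libraries. Ccl3, a ligand of CCR1, was called lower. It measured 40.3 and 46.0 in the NC tumours and 23.2 and 26.7 in the Sema4d-shRNA tumours (edgeR adjusted p = 0.0424). Of the 10 that could be tested in the macrophage or monocyte-like cells and the 8 in T and NK-like cells, edgeR and DESeq2 called none, with 2 (Ccrl2 and Cx3cl1) and 1 (Ccr7) at an unadjusted p under 0.05, where 10.2% and 7.87% of all genes were.

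The further ligands Ccl3, Ccl4, Ccl5 and Cx3cl1 had their highest levels outside the macrophage or monocyte-like cells. Ccl3 measured 1001 and 525 in T and NK-like cells of the NC libraries and 594 and 465 in those of the Sema4d-shRNA libraries. Macrophage or monocyte-like cells had 138 and 153 against 147 and 136 for Ccl3. They still held the most of its UMIs, 63.3% and 81.2% against 54.3% and 48.3%. Cx3cl1, the ligand of Cx3cr1, was a product of tumour-like cells, at 90.0 and 111 in the NC libraries and 127 and 91.5 in the Sema4d-shRNA libraries, against 7.49 and 9.75 and 16.3 and 10.9 in macrophage or monocyte-like cells (log2 difference -3.14, edgeR adjusted p = 4.24e-08). Among tumour-like cells it was highest in cluster 12, the cluster that was also highest in Ccl7, at 285 and 328 against 332 and 236. Tumour-like cells held 93.0% and 94.8% of its UMIs in the NC libraries and 97.4% and 96.6% in the Sema4d-shRNA libraries. Ccl5 had its highest CPM in T and NK-like cells, at 2729 and 2421 against 3096 and 2720. Ccl4 measured 2169 and 1688 against 2053 and 1613 there. The few neutrophil-like cells had a higher Ccl4 level than that in every library except NC library 1. By share of UMIs, however, tumour-like cells held the most Ccl5, 55.1% and 55.6% against 64.0% and 58.8%. Macrophage or monocyte-like cells held the most Ccl4 in 3 libraries, 67.2% and 78.7% in the NC libraries and 50.6% in Sema4d-shRNA library 1, while in library 2 they held 42.6% and T and NK-like cells 44.8%. In whole libraries Ccl5 measured 210 and 182 against 277 and 249 (edgeR adjusted p = 0.0639) and Ccl4 107 and 132 against 81.0 and 83.7 (adjusted p = 0.0839), neither overlapping between the groups.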

How the data were processed

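The authors deposited, per the labels' protocols, single-cell libraries built with a DNBelab C Series kit, read on a DNBSEQ-T7. Each deposited matrix holds raw UMI counts per gene and cell, written by PISA 1.0 per the file headers. The submitters' processing notes name STAR 2.5.1b and the builds GRCh38 and mm10 without roles. No source used here gives the annotation, how cells were called or whether strand was used. The 9 genes and all gene lists were chosen with earlier results of these data known. The named genes were always the 9, plus those of the 27 other chemokine genes that passed a test, Ccl3, Ccl4, Ccl5 and Cx3cl1 whatever their values, and the 2 genes most like each of the 9. One of the 27 is not reported here, and calls of it are left out of the text.

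Filters of at least 300 genes per cell and up to 20% mitochondrial UMIs left 45062 of 45220 cells. The automatic threshold of scrublet (scanpy 1.11.5) marked none in 3 libraries and 1.70% in the other, so the 6% of cells with the highest doublet scores were left out of every library (2703 cells). Leiden clustering used 2000 variable genes, 30 principal components, 15 neighbours and resolution 1, with no integration of batches. Marker lists named the clusters, by scoring limits set after the data had been seen. Unnamed cells numbered 1168 and 532 in the NC libraries and 231 and 343 in the Sema4d-shRNA libraries. The test was that of edgeR 4.0.16 on counts summed per class and library (filterByExpr, TMM, robust quasi-likelihood fit, under R 4.3.3 with limma 3.58.1), with Benjamini-Hochberg adjustment over all genes at 0.05. An exact permutation test with 2 libraries against 2 cannot go below 0.333 (two-sided), so none was used. Alternatives were DESeq2 1.42.0, other size factors, no filter, marked doublets kept, resolution 2, a replicate block and each library left out. On simulated data of the real genes, 2-fold changes were called for 68% of 100 changed genes in whole libraries (16442 genes), 74% in tumour-like cells (14518) and 74% in macrophage or monocyte-like cells (12410).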

Additional observations from a re-analysis of the deposited data

Results flagged for a closer look

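In 5 genes edgeR's quasi-likelihood test called the difference between the log2 change in macrophage or monocyte-like cells and that in the tumour-like class. In tumour-like cells all 5 lay within or below the range of the macrophage markers relative to the macrophage level, and those markers summed to 314 and 405 CPM there in the NC libraries and to 148 and 157 in the Sema4d-shRNA libraries. The part of these marker levels in the differences was not tested, so the values do not show that the genes themselves changed differently in tumour cells. The difference was 1.36 for Ccl8 (adjusted p = 4.75e-06), 1.26 for Ccl6 (adjusted p = 0.000147), 1.18 for Ccl12 (adjusted p = 0.00158), 0.86 for Ccl9 (adjusted p = 0.00151) and 0.79 for Ccr1 (adjusted p = 0.0221). Ccl8 measured 5.52 and 4.95 CPM in tumour-like cells of the NC libraries and 11.3 and 2.11 in those of the Sema4d-shRNA libraries, and Ccr1 1.18 and 1.83 against 0.68 and 0.78. With 1 library left out, Ccl8 and Ccl6 passed in every fit (highest adjusted p 0.0236 and 0.0247). Ccl12 missed the threshold without NC library 2 (0.0739), Ccl9 without NC library 2 (0.0992) or NC library 1 (0.0854), and Ccr1 without NC library 2 (0.738), NC library 1 (0.0577) or Sema4d-shRNA library 1 (0.0915).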

How the results depend on the processing

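With 2 libraries per group, counts of called genes moved with the processing, and the cause was not tested. Whole libraries gave 303 called genes as reported, 1436 with DESeq2, 1196 with no filter on low counts, 794 with the replicate number as a block and 25 without macrophage or monocyte-like cells (chosen after seeing the data). Tumour-like cells gave 78 as reported, 271 with DESeq2, 848 with no filter and 137 with the replicate block. Macrophage or monocyte-like cells gave 31 as reported, 65 with DESeq2, 401 with no filter and 205 with the replicate block. With no filter there were 95 in T and NK-like, 33 in monocyte-like, 32 in C1q macrophage-like and 43 in inflammatory macrophage-like cells. With the replicate block there were 46, 32 and 23 in those 3 sub-classes, and at resolution 2 there were 42 in C1q macrophage-like and 3 in inflammatory macrophage-like cells. With each library left out in turn, the counts ranged from 2 to 1273 (whole libraries), 15 to 522 (tumour-like), 1 to 318 (macrophage or monocyte-like), 50 to 84 (T and NK-like), 27 to 37 (monocyte-like), 25 to 77 (C1q macrophage-like), 4 to 259 (inflammatory macrophage-like) and 93 to 916 (the difference of changes between classes). A lone library of a group was then assumed to vary like those of the other group.

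Among the log2 changes of the 9 genes, 129 values in other settings kept their direction and side of the threshold, 8 came to pass it, 2 no longer passed and 3 turned. Those that turned were whole-library Ccl2 (0.43), Ccl7 (0.64) and Ccr2 (0.36) without macrophage or monocyte-like cells. With 1 library left out, 156 stayed, 11 came to pass, 11 no longer passed and 10 turned. In whole libraries Ccl2 then ranged from -0.71 to 0.36, Ccl7 from -1.38 to 0.065 and Ccl8 from -1.10 to 1.21. In tumour-like cells Ccl2 ranged from -0.28 to 0.89 and Ccl7 from -0.66 to 1.37. In macrophage or monocyte-like cells the ranges were -0.54 to 0.056 (Ccl2), -0.69 to 0.017 (Ccl7), -0.038 to 2.59 (Ccl8) and -1.04 to 0.090 (Ccl12). Libraries with the same number in both groups had deviations that correlated by -0.02 to 0.11. With 2 libraries per group, such a correlation cannot show whether same-numbered libraries were processed together. With the replicate block, Ccr2 (adjusted p = 0.0130) and Cx3cr1 (0.0058) passed edgeR's test in whole libraries, and Ccl6 (0.00214) in macrophage or monocyte-like cells, where it also passed with no filter (adjusted p = 6.3e-06). Dendritic, neutrophil and fibroblast-like cells were not tested between groups.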

Other observations

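Genes with the most similar pattern to each of the 9 were found over 41 sums of a named class or sub-class and a library (12 classes), as Pearson's r of log2(CPM + 1) among 6885 genes. The sums share libraries, and sub-classes share cells with their class, so r is a description. Ccl2 was nearest to its neighbour Ccl7 (r = 0.93) and to Npc2 (0.90), and Ccl7 to Ccl2 and Ctsz (0.90). Ccl6 was nearest to Pirb (0.96) and Tlr13 (0.95), and Ccl9 to Cfp (0.96) and Sdc3 (0.96). Ccl12 was nearest to the macrophage markers Ms4a7 (0.94) and Adgre1 (0.93). Ccl8 was nearest to Igf1 (0.90) and Hebp1 (0.88). Among the receptors, Ccr2 was nearest to Ms4a4c (0.95), one of the monocyte markers, and to Pyhin1 (0.94). Ccr1 was nearest to Cd300ld (0.93) and C130050O18Rik (0.92), and Cx3cr1 to Ctsc (0.88) and BC037034 (0.87).

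Among lymphocytes, regulatory T-like cells, 9 to 26 per library, had 442 and 95.7 CPM of Ccr2 in the NC libraries and 349 and 144 in the Sema4d-shRNA libraries. These values rest on 7 and 3 against 12 and 13 UMIs. Their range is too wide at these cell numbers to place the cells against monocyte-like cells in Ccr2.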
